A study of Mus musculus with 6 samples.

Results

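The *Dlk1*-*Dio3* domain is an imprinted stretch of mouse chromosome 12, and its RNAs were described here in the lungs of E18.5 embryos. They were chosen by name, as the coding genes, long non-coding RNA genes and microRNA genes of that domain, and the domain itself was picked with the differences between *Tnrc6a* null and WT lungs already known. Those differences are therefore given as a description, with no test of their own. Of 54 RNAs named, 45 had a probe set annotated to a single gene, among 19938 genes on the array. They comprised 40 microRNA genes, the coding genes *Dlk1*, *Rtl1* and *Dio3*, and the long RNAs *Meg3* and *Rian*. *Mir299* and *Mir496* were matched through their current symbols *Mir299a* and *Mir496a*. *Mirg*, *Mir410* and *Mir433* had a probe set shared with another gene, and *Mir770*, *Mir493*, *Mir758*, *Mir654*, *Mir544* and *Mir453* had none.

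Whole lungs of 3 WT and 3 *Tnrc6a* null embryos, all on a C57Bl/6 background, were profiled on Affymetrix Mouse Gene 1.0 ST arrays, with 1 embryo on each array. *Tnrc6a*, also called GW182, encodes a partner of the Argonaute proteins in microRNA silencing. The null embryos were homozygous for a gene trap allele, a β-galactosidase insertion that disrupts that gene (GW182gt/gt), and the WT embryos were their littermates. The sex of the embryos is not given, and the labels do not say which embryos shared a litter. Signal is given on the deposited log scale, whose base the labels give as 2. The values themselves do not settle the base, so changes are stated as differences of log signal, null minus WT, and not as folds.

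The domain is read from one parental chromosome at a time. The coding genes *Dlk1*, *Rtl1* and *Dio3* are expressed from the paternal chromosome, whereas *Meg3*, *Rian*, *Mirg* and the microRNAs are expressed from the maternal one, where they follow each other in the same direction. The microRNAs are cut from these long maternal transcripts, among them a group whose transcript runs antisense to *Rtl1* and a large cluster from *Mir379* to *Mir410*. RNAs of the domain are abundant in fetal tissues, and many of them decline after birth. An array of this design does not separate the parental alleles, and it does not separate a host transcript from the hairpin or the mature microRNA cut from it. In whole lung, fewer cells of a type and less RNA per cell cannot be told apart.

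The products of the microRNA genes share a chromosome and a direction, and few of them share a seed. RefSeq held hairpins for 46 of the named microRNA genes and 91 mature sequences of 19 to 26 bases. Capitals mark the seed, bases 2 to 8 counted from the 5′ end, with which a microRNA recognises its targets. The sequences shown are those of the 4 measured microRNA genes antisense to *Rtl1* and of the 6 with the highest difference between genotypes. *Mir127* belongs to both sets. *Mir376c*, *Mir376a* and *Mir411*, which share a seed or a name with one of the 6, are shown by a single sequence each. The other sequences of *Mir376a* and *Mir411*, miR-376a-5p and miR-411-5p, are left out.
miR-431-5p: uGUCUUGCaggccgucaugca
miR-431-3p: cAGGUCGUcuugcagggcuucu
miR-127-5p: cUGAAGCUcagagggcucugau
miR-127-3p: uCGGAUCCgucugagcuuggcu
miR-434-5p: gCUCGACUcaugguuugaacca
miR-434-3p: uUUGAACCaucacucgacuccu
miR-136-5p: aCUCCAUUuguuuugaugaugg
miR-136-3p: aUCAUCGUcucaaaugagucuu
miR-379-5p: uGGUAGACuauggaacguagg
miR-379-3p: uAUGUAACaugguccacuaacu
miR-411-3p: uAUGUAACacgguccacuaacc
miR-380-5p: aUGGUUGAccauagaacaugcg
miR-380-3p: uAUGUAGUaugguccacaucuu
miR-543-5p: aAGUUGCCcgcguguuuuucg
miR-543-3p: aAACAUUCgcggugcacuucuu
miR-376c-5p: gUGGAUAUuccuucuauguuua
miR-376b-5p: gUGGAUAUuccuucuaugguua
miR-376b-3p: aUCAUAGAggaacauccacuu
miR-376a-3p: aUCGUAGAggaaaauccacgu
miR-369-5p: aGAUCGACcguguuauauucgc
miR-369-3p: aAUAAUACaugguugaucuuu
All lie on the plus strand of chromosome 12 in GRCm38.p6, from base 109590459, where miR-431-5p starts, to base 109743486, where miR-369-3p ends, downstream of *Meg3* and upstream of *Dio3*. The 91 mature sequences carried 87 different seeds, and 4 seeds were each found in 2 genes. One of these is AUGUAAC, in miR-379-3p and miR-411-3p, and another is UGGAUAU, in miR-376b-5p and miR-376c-5p.

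In the null lungs *Tnrc6a* itself fell by 1.93 in deposited log units (standard error 0.128, and 0.00312 as limma's adjusted p), the 3 WT values being 7.38, 7.13 and 7.18 and the 3 null values 5.45, 5.04 and 5.40. With WT replicate 3 left out, limma's adjusted p was 0.0552. The lung genes *Sftpc*, which encodes surfactant protein C, and *Nkx2-1*, a transcription factor of lung epithelium, stood at 11.7 and 8.43 on average in the WT lungs, at the 99.97 and 95.2 percentiles of all genes. Over all genes WT replicate 1 correlated with null replicate 3 at 0.9921, the highest value between a WT and a null lung, in a range from 0.982. WT replicate 2 and null replicate 2 were close behind at 0.9918. The deviations of WT replicate 1 and null replicate 3 from their genotype means correlated at 0.538, the highest such value. Results that rest on WT replicate 1 and null replicate 3 are given without them too. No batch shared by them is named in the sources used here.

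The genes at either end of the domain differed between the genotypes by little, and the microRNA genes between them all had a higher mean in the null lungs. For *Dlk1*, which encodes a transmembrane ligand related to the Notch ligands, the WT values were 11.04, 11.19 and 11.20 and the null values 11.13, 11.28 and 11.14. The genotypes overlapped, and the difference was 0.04 with a standard error of 0.079. For *Dio3*, the deiodinase gene whose enzyme inactivates thyroid hormone, the WT values were 3.44, 3.95 and 4.20 and the null values 3.65, 3.76 and 3.66. All 3 null lungs fell inside the WT range, and the difference of -0.17 (standard error 0.195) was the only negative one among the 45 genes. *Rtl1*, a coding gene derived from a retrotransposon that is needed in the placenta, behaved differently from the other coding genes. Its WT values were 4.71, 4.85 and 4.84 and its null values 5.03, 5.29 and 5.0. Each null lung lay above each WT lung, with a difference of 0.31 and a standard error of 0.118. *Rtl1* overlaps microRNA genes on the opposite strand, and the strand and position of single probes were not used here.

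Among the long RNAs of the maternal chromosome the difference was smallest for *Meg3*. *Meg3*, a non-coding RNA that begins the maternal series, lay at 10.20, 10.20 and 10.24 (WT) and 10.24, 10.29 and 10.37 (null). The highest WT lung met the lowest null lung, and the difference was 0.09 (standard error 0.068). *Rian*, the host of a long series of small nucleolar RNAs, lay at 6.32, 6.60 and 6.62 (WT) and 7.15, 7.11 and 6.49 (null). Null replicates 1 and 2 stood above every WT lung while null replicate 3 lay within their range, and the difference was 0.40 with a standard error of 0.175. A further probe set, shared by *Rian* and the small nucleolar RNA gene *AF357355*, stood at 7.36, 7.41 and 7.60 (WT) and 7.96, 8.04 and 7.84 (null). Here the genotypes did not overlap, with a difference of 0.49. The probe set shared by *Mirg* and *Mir410*, at the far end of the series, had a difference of 0.53, from 7.19, 6.28 and 6.36 to 7.02, 6.95 and 7.45. WT replicate 1 lay above 2 of the null lungs there, so that the genotypes overlapped. With 4 probe sets, of which 2 are shared between genes, the order along the domain is a description of these values.

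**Figure D1:**
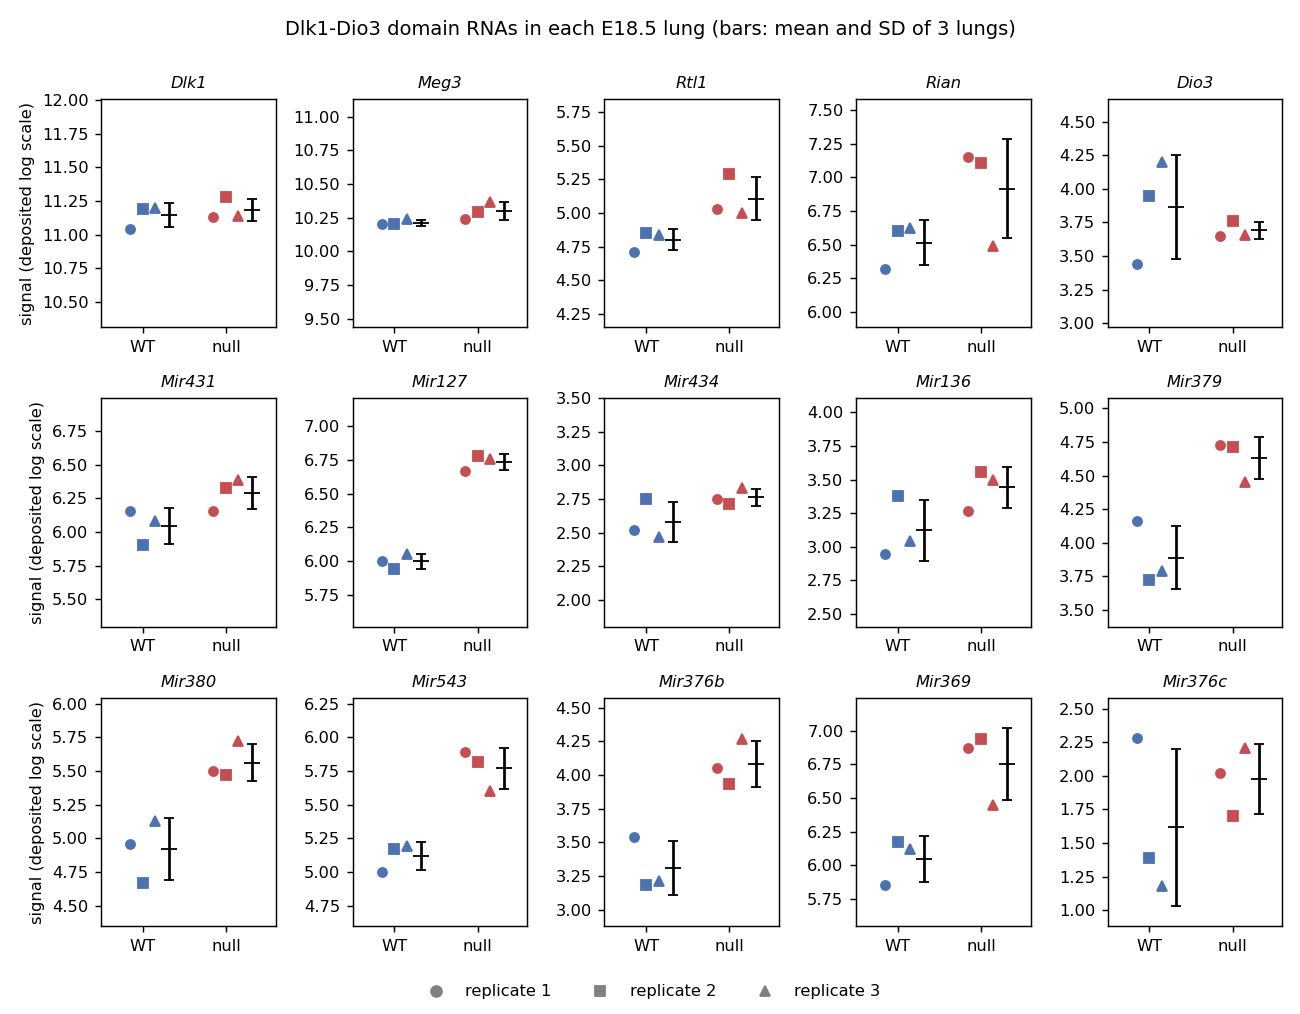
Levels of 15 RNAs of the domain, lung by lung. Vertical axes give deposited log signal with the same span in every panel, points are single lungs with a shape for each replicate number, and bars mark the genotype mean with its SD over 3 lungs; *Dlk1* and *Meg3* change little, *Mir127* is separated with little spread, and *Mir376c* overlaps, with WT replicate 1 at 2.28.

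All 40 microRNA genes had a higher mean in the null lungs, with a median difference of 0.38 and a range of 0.02 to 0.77. Over all genes 49.2% had a higher mean in the null lungs, and the median difference was within 0.01 of zero. Each null lung lay above each WT lung in 19 of the 40 microRNA genes, and in 20 of the 45 RNAs, against 4.67% of all genes. None of the 45 was separated in the other direction, against 5.51%. At an unadjusted p under 0.05 from limma 25 of the microRNA genes and 27 of the 45 RNAs were higher and 0 were lower, against 2.46% of all genes higher and 2.96% lower. In either direction the unadjusted share of all genes was 5.42%. After Benjamini-Hochberg adjustment over all genes 0 of the 45 passed with limma, against 0.00502% of all genes, and 0 with the methods' t-test. Before adjustment that t-test had 17 of the 45 higher, against 2.39% of all genes. Since the domain was picked from this contrast, nothing is read from these counts.

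The microRNA genes antisense to *Rtl1* ranged widely. The transcript that holds them pairs with the *Rtl1* mRNA along its length, and the microRNAs cut from it are known to direct cleavage of that mRNA. *Mir127* lay at 6.00, 5.94 and 6.05 (WT) and 6.67, 6.78 and 6.76 (null). The gap of 0.74 between the means (standard error 0.083) was accompanied by an SD of 0.055 among WT lungs and 0.059 among null lungs, less than in most of the domain. *Mir431* stood at 6.16, 5.90 and 6.08 against 6.16, 6.33 and 6.39, with a difference of 0.25. WT replicate 1 and null replicate 1 had the same value there. *Mir136* stood at 2.95, 3.38 and 3.04 against 3.27, 3.56 and 3.50 (difference 0.32), and *Mir434* at 2.52, 2.75 and 2.47 against 2.75, 2.71 and 2.83 (difference 0.18). In both of these dim genes WT replicate 2 lay within the null range. *Mir433* shared its probe set with *6430411K18Rik*, and that probe set went from 6.31, 5.73 and 5.83 to 6.32, 6.38 and 6.45. WT replicate 1 lay 0.01 below the lowest null lung there, and the difference was 0.43. So *Mir127*, *Rtl1* and the *Mir433* probe set were separated between the genotypes, while the genotypes of *Mir431*, *Mir434* and *Mir136* overlapped or met.

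Upstream of these genes, between *Meg3* and the *Rtl1* antisense group, *Mir673*, *Mir337*, *Mir540* and *Mir665* had a median difference of 0.26, and of these 1 was separated, *Mir540*, at 6.30, 6.38 and 6.40 against 6.43, 6.89 and 6.75. *Mir673*, at 0.12, overlapped between the genotypes and turned to -0.12 when WT replicate 1 and null replicate 3 were left out. The 2 microRNA genes by *Rian* were both separated. Of all genes, 4.67% were separated in this direction. *Mir341* stood at 8.11, 8.09 and 8.17 (WT) and 8.40, 8.61 and 8.50 (null), with a difference of 0.38 (standard error 0.078). *Mir370* stood at 4.89, 4.82 and 4.69 against 5.10, 4.95 and 5.36, with a difference of 0.34.

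In the cluster that begins with *Mir379*, 30 genes were measured, with a median difference of 0.48. Each null lung lay above each WT lung in 15 of them, against 4.67% of all genes, and nothing is read from this count. *Mir376b* had the highest difference of all 45 RNAs, 0.77 (standard error 0.161), with WT lungs at 3.54, 3.18 and 3.21 and null lungs at 4.05, 3.93 and 4.27. *Mir379*, the first gene of the cluster, lay at 4.16, 3.72 and 3.79 against 4.73, 4.71 and 4.45. *Mir369*, near the far end, lay at 5.85, 6.17 and 6.12 against 6.87, 6.94 and 6.45. The differences of *Mir379* and *Mir369*, 0.74 and 0.71, came from opposite ends of the cluster. *Mir543* went from 5.0, 5.17 and 5.19 to 5.89, 5.82 and 5.60 (difference 0.65, standard error 0.113), and *Mir380* from 4.96, 4.67 and 5.13 to 5.50, 5.47 and 5.72 (difference 0.64, standard error 0.139). In each of these 5 genes the lowest null lung stood above the highest WT lung. At the other end of the range *Mir494* lay at 5.27, 4.83 and 4.74 (WT) and 5.02, 4.67 and 5.22 (null), with a difference of 0.02 and a standard error of 0.183, although it sits among neighbours with larger differences, *Mir329* at 0.53 and *Mir679* at 0.44. Across the 30 genes the order along the chromosome and the difference had a Pearson correlation of 0.0688, and across all 40 microRNA genes one of 0.274, both given as a description over genes that share 6 arrays and transcripts.

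**Figure D2:**
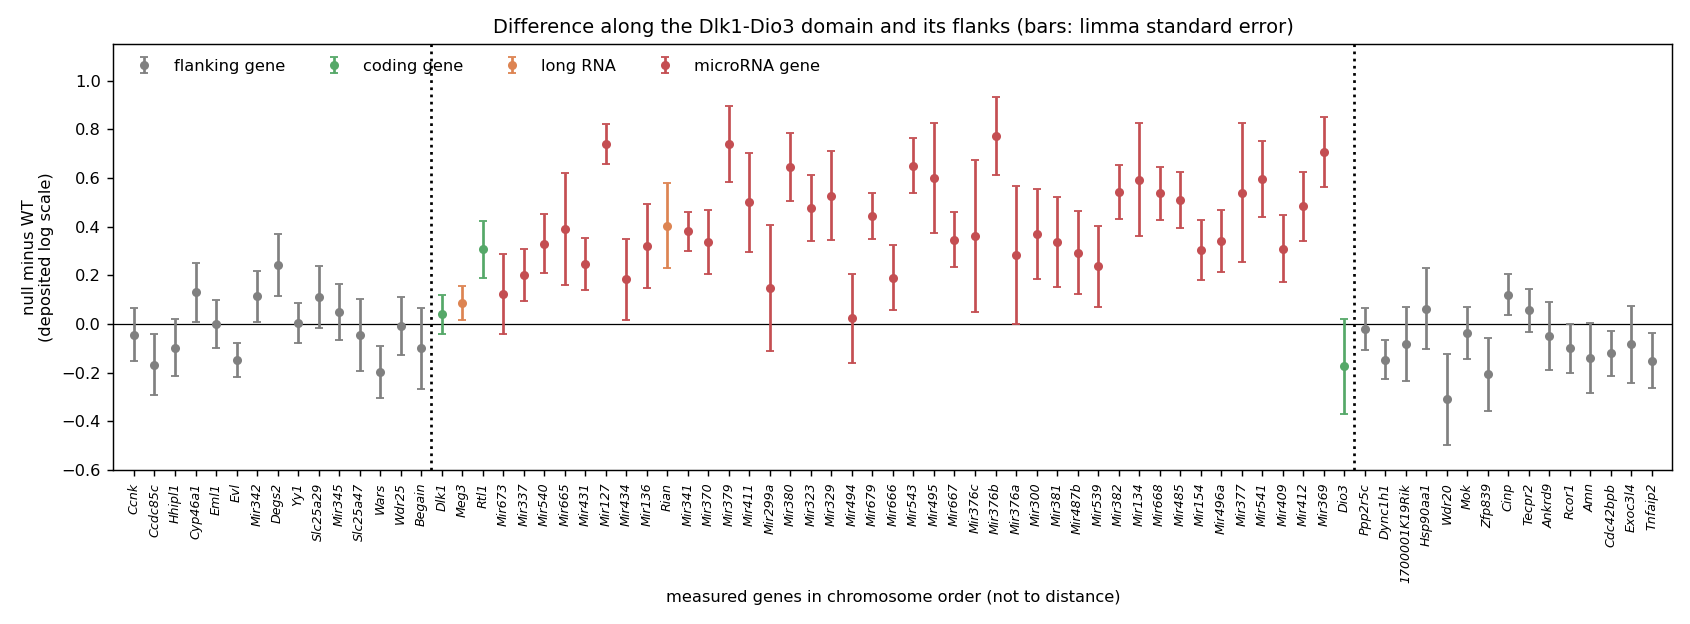
Difference between *Tnrc6a* null and WT lungs for the measured genes of the domain and 15 measured genes on either side, in chromosome order. The vertical axis is null minus WT on the deposited log scale, bars are limma's standard error, dotted lines bound the domain, and colours give the class of gene; microRNA genes lie between 0.02 and 0.77, flanking genes between -0.31 and 0.24.

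Genes that flank the domain had differences on both sides of zero. Of the 15 measured genes next to *Dlk1* and the 15 next to *Dio3*, 9 had a higher mean in the null lungs and 20 a lower one, with a median difference of -0.05. None of the 30 passed limma's adjusted or unadjusted threshold of 0.05, and the methods' t-test had 1 lower before adjustment and 0 after it. The nearest genes on the *Dlk1* side were *Begain*, at -0.10 (standard error 0.167), and *Wdr25*, at -0.01 (standard error 0.119). On the *Dio3* side they were *Ppp2r5c*, a regulatory subunit gene of protein phosphatase 2A, at -0.02 (standard error 0.087), and *Dync1h1*, the heavy chain gene of cytoplasmic dynein, at -0.15 (standard error 0.081). Inside the domain, 3 further genes were measured that were not among the RNAs named, all of them small nucleolar RNA genes hosted near *Rian*. *DQ267102* went from 8.45, 8.52 and 8.54 to 8.90, 8.87 and 8.83 and was separated, with a difference of 0.36, while *DQ267101*, at 0.03, and *AF357341*, at 0.17, overlapped. *DQ267101* had its highest value, 5.02, and its lowest, 3.79, both in null lungs. The microRNA genes elsewhere in the genome, 257 in number and dim on average, had a median difference of 0.10, with 190 higher and 64 lower on average. Over all genes 49.2% were higher on average. Of the 257, 21 were separated upwards and 1 downwards, against 4.67% and 5.51% of all genes. At an unadjusted p under 0.05 from limma 11 were higher and 1 lower, against 2.46% and 2.96% of all genes.

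The difference of an average gene depended on its signal on these arrays, so the RNAs of the domain were set beside all genes of like signal. Genes were ranked into 10 groups of like signal, and from the dimmest to the brightest group the median difference went from 0.153 to -0.063. In groups 2 and 3, counted from the dimmest, it was 0.110 and 0.063. The 257 microRNA genes elsewhere had mean levels of 3.65 to 3.85 in single lungs, in the range of these dim groups. Their median difference of 0.10 lay between those of groups 2 and 3, but these genes were not matched to signal gene by gene. Among those at or above the median signal of all genes it was 0.11, against -0.047 for all such genes. The 45 RNAs were found in every group, 20 of them in the dimmer 5. Of the 45, 43 had a difference above the median of all genes in their own group, and 39 of the 40 microRNA genes did. The difference minus that median ran from -0.283 for *Dio3* to 0.777 for *Mir127*, with a median of 0.39 over the 45. In the dimmest group the microRNA genes stood nearest to other genes, with a median of 0.283 over *Mir434*, *Mir299a*, *Mir376c*, *Mir376a* and *Mir381*, whereas in the group next to the brightest *Mir679*, *Mir667*, *Mir382*, *Mir668* and *Mir377* had a median of 0.537 against -0.057. Signal over background was not measured, so for the dim genes it is not known how much of the value is hybridisation of their own RNA.

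**Figure D3:**
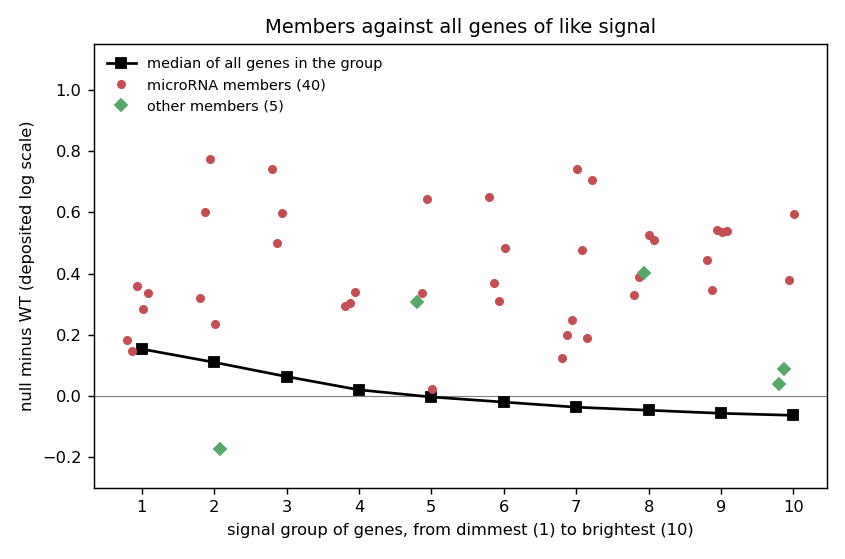
Difference of the 45 RNAs against their signal group. The horizontal axis ranks all 19938 genes into 10 groups by mean signal, the vertical axis is null minus WT on the deposited log scale, squares are the median of all genes in a group, circles are microRNA genes and diamonds are *Dlk1*, *Meg3*, *Rtl1*, *Rian* and *Dio3*; all but 1 of the circles lie above the squares.

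Without use of the null lungs, the microRNA genes of the domain differed from each other in how they varied among WT embryos. The SD over the 3 WT lungs had a median of 0.167 over the 40 microRNA genes and of 0.137 over all genes. Over the 257 microRNA genes elsewhere, which were dimmer on average, it was 0.176. The median SD of all genes fell from 0.236 in the dimmest of the 10 signal groups to 0.093 in the brightest. In groups 2 and 3, near the mean level of the 257 genes, it was 0.192 and 0.164. Of the 45 RNAs, 29 had an SD above the median of their own group. *Mir341*, *Mir540* and *Mir127* had small values, 0.0416, 0.0529 and 0.0551. The largest were those of *Mir376c* at 0.584, *Mir376a* at 0.557, *Mir377* at 0.475, *Mir665* at 0.437, *Mir411* at 0.405 and *Mir300* at 0.401. In each of these 6 the highest WT value was that of WT replicate 1. For *Mir376c*, WT replicate 1 stood at 2.28 beside 1.39 and 1.18 in the other WT lungs and above 2.02, 1.70 and 2.21 in the null lungs. *Mir376a*, its neighbour, showed the same order, at 3.02 beside 2.11 and 2.01, with null lungs at 2.55, 2.51 and 2.93. *Mir376b*, which lies between them and shares a seed with *Mir376c*, was separated, and WT replicate 1, though its highest WT lung too at 3.54, lay below all 3 null lungs.

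WT replicate 1 and null replicate 3 each stood apart from the other lungs of their genotype, and both moved some of the microRNA genes up and others down. WT replicate 1 lay above the mean of the other WT lungs in 21 of the 40 microRNA genes, against 30.6% of all genes, and null replicate 3 above the mean of the other null lungs in 21, against 43.7%. In 14 genes both lay above, among them *Mir377*, *Mir665*, *Mir376c*, *Mir376a* and *Mir411*, and in 12 both lay below, among them *Mir134*, *Mir369*, *Mir668*, *Mir485*, *Mir543* and *Mir382*. *Mir134* had the lowest deviation of the 40 genes in both lungs, with WT lungs at 7.64, 8.08 and 8.32 and null lungs at 8.81, 8.92 and 8.09. WT replicate 1 was its lowest WT lung and null replicate 3 its lowest null lung. The deviations of these lungs had a Pearson correlation of 0.528 over the 40 microRNA genes, 0.410 over the 257 elsewhere and 0.538 over all genes, so the shared deviation was not limited to the domain. Compared with each other alone, null replicate 3 lay above WT replicate 1 in 34 of the 40, against 57.5% of all genes. With both lungs left out, the null lungs were higher in 39 of the 40, all but *Mir673*, against 43.6% of all genes, and the median difference of the 40 was 0.482. Among the genes described above, *Dio3* then stood at -0.37, *Meg3* at 0.045, *Mir434* at 0.12 and *Mir136* at 0.205. After adjustment 11 of the 45 RNAs were past the threshold, all higher, when these lungs formed a block (0.135% of all genes higher), 5 when both were left out (0.0502%) and 1, *Mir127*, with array weights (0.00502%). Both lungs were singled out from these data and nothing is read from the counts.

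**Figure D4:**
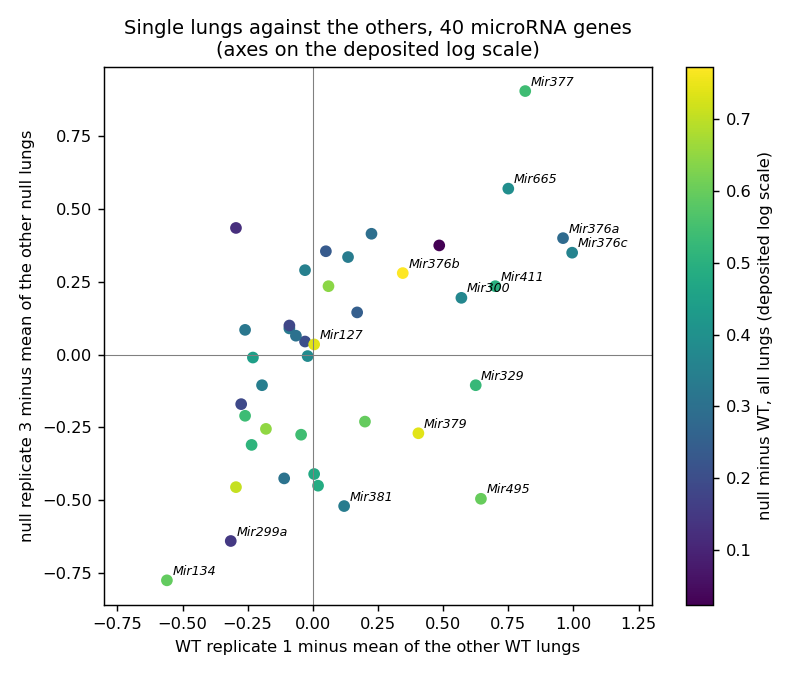
Deviation of WT replicate 1 from the mean of the other WT lungs (horizontal axis) and of null replicate 3 from the mean of the other null lungs (vertical axis), on the deposited log scale, for the 40 microRNA genes. Each point is 1 gene and its colour is the difference between the genotypes over all lungs; *Mir377*, *Mir665*, *Mir376a* and *Mir376c* lie high in both lungs and *Mir134* lies low in both.

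The deviation of WT replicate 1 went with the base composition of the hairpins and also with signal. Their content of G and C ran from 29.1% for *Mir376c* to 62.0% for *Mir667*. The 13 microRNA genes with the lowest content, up to 41.3%, had a median deviation of 0.345 in WT replicate 1, and the middle and highest 13 had medians of -0.090 and -0.020. Across the 39 hairpins known to RefSeq the content of G and C had a Pearson correlation of -0.476 with the deviation of WT replicate 1, of -0.0704 with that of null replicate 3 and of -0.068 with the difference between the genotypes. Over 220 microRNA genes elsewhere these correlations were 0.0962, 0.459 and 0.131. Signal went with base composition too. Across the 39 microRNA genes of the domain, mean signal correlated with the content of G and C at 0.698 and with the deviation of WT replicate 1 at -0.353. Median signal was 3.57 in the 13 genes with the lowest content and 6.37 in the 13 with the highest. The parts of composition and signal were not tested. All these correlations are descriptions over genes that share arrays, and the probes' own composition was not used.

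In 4 lists of genes related to the domain or its products, which leave out *Tnrc6a*, no gene passed the adjusted threshold. Of 19 genes of imprint maintenance and chromatin, 10 were higher and 9 lower on average, with a median difference of 0.01. *Tet3*, an enzyme gene that oxidises methylated cytosine, stood at -0.27, and *Ctcf*, the gene of a DNA-binding insulator protein, at -0.18, both at an unadjusted p under 0.05 and at an adjusted p of 0.890 from limma. Of 23 genes of microRNA biogenesis, 10 were higher and 13 lower, with a median of -0.05. *Ran*, which encodes the GTPase that powers nuclear export of microRNA precursors among other cargo, had the smallest p, at 6.59, 6.57 and 6.49 (WT) and 7.0, 6.69 and 6.96 (null) (difference 0.33, adjusted p = 0.890 from limma). Of 19 genes of Notch signalling, to whose ligands DLK1 is related, 5 were higher and 14 lower, with *Notch3* at -0.24 and *Jag2* at -0.22. Of 11 measured genes of thyroid hormone handling and response, 5 were higher and 6 lower, and *Thra*, a thyroid hormone receptor gene, stood at -0.33, from 9.19, 9.22 and 9.19 to 8.79, 9.05 and 8.78. None of the genes in these 4 lists passed over all genes with limma or with the methods' t-test, and 1 was higher and 5 were lower at an unadjusted p under 0.05 from limma, against 2.46% and 2.96% of all genes.

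Markers of some cell types of the lung differed on average between the genotypes or stood apart in single lungs. The lists were chosen with earlier results of these data known, and the permutation p values were not adjusted over the lists. Of 13 mesenchyme markers 12 were lower on average, and their mean level lay between 8.96 and 9.0 (WT) and between 8.82 and 8.88 (null), with p = 0.1 in a two-sided exact permutation test, the smallest that 3 lungs against 3 allow. Alveolar type 1 markers were lower in 11 of 12, with all null lungs below all WT lungs (exact permutation p = 0.1). The median difference was -0.12 for the mesenchyme list and -0.17 for the alveolar type 1 list. The mean levels of both lists lay in the brightest signal group, where the median difference of all genes was -0.063. Of 11 airway epithelium markers 8 were lower, and their mean level was 6.147, 6.085 and 6.235 (WT) and 6.075, 6.070 and 5.970 (null), again with no overlap (exact permutation p = 0.1). Their median difference of -0.07 ran from -0.195 without WT replicate 2 to -0.037 without null replicate 3. Of 13 proliferation markers all 13 were higher on average, and their mean level stood at 7.17, 6.70 and 6.69 (WT) and 7.18, 6.82 and 7.33 (null) (exact permutation p = 0.2). WT replicate 1 and null replicate 3 were the highest lungs of their genotype in that list. Among the 40 microRNA genes, both lay above the mean of the other lungs of their genotype in 14 and below it in 12. The median difference of the list, 0.25, was as high as 0.43 when WT replicate 1 was dropped and was as low as 0.095 when null replicate 3 was, and leaving out WT replicate 3 or null replicate 2 moved it by over 1.5 times too. Of 8 neuroendocrine markers 5 were higher and 3 lower (exact permutation p = 1). The marker lists of alveolar type 2 cells, smooth muscle, endothelium, mesothelium, cartilage, cardiac and skeletal muscle, erythroid cells and macrophages had median differences of 0.00, -0.05, -0.12, -0.09, 0.01, -0.08, 0.15 and -0.21, with exact permutation p values from 0.3 to 0.9. Of 9 macrophage markers 9 were lower, with a median that ran from -0.397 without WT replicate 1 to -0.075 without null replicate 3. Of 5 erythroid markers 4 were higher, with a median that ran from -0.013 without WT replicate 1 to 0.252 without WT replicate 3. No marker gene passed over all genes with limma or the methods' t-test. The part of these cell types in the values of the domain was not tested.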

How the data were processed

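RNA of individual E18.5 lungs was profiled on Affymetrix whole-transcript arrays. The authors deposited 1 value for each of 35045 probe sets and each of 6 lungs, on a log2 scale per the labels. MAS5 is named in the submitters' processing notes, and neither its version nor a later normalization step is given in the sources used here. Array medians lay between 4.98 and 5.03, and values were used as deposited. With 3 arrays a genotype their number limits the precision. Replicates are separate embryos.

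Of the probe sets 21789 carried 1 gene symbol, 21698 of them updated by Entrez ID through a RefSeq annotation of GRCm38.p6, which gave the gene order. The brightest probe set stood for a gene (no gene of the domain had several). All 19938 genes were fitted together with limma 3.58.1 in R 4.3.3 (lmFit, eBayes with trend, Benjamini-Hochberg), a procedure tested on simulated data. List means were compared with exact permutation tests (scipy 1.17.1, Python 3.11.15). The members and lists were chosen with earlier results of these data known. Genes were named by rule: the long and coding RNAs, the microRNA genes antisense to *Rtl1*, the highest 6 microRNA genes, the lowest 4 members, the nearest 2 flanking genes on each side, and up to 3 genes with the smallest p in a list. Others, such as the genes with the largest WT spread, were chosen after their values were seen. Alternatives were other normalizations, leaving out dim genes, averaged probe sets, other variance models, array weights, blocks, the methods' t-test and leaving out lungs. Their use on the pathway and marker lists was chosen after seeing the data.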

Additional observations from a re-analysis of the deposited data

How the results depend on the processing

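Over 18 alternatives the median difference of the 45 RNAs stayed positive, and of 790 member values 785 moved by less than 1 SD between lungs and 0 with an unadjusted p under 0.05 changed sign. That median was 0.416 with array weights, 0.450 without both WT replicate 1 and null replicate 3, 0.403 among genes at or above the median signal, and 0.347 to 0.405 when lungs were left out singly, with null replicate 1 giving the highest. The count higher at an unadjusted p under 0.05, 27 (2.46% of all genes), was 15 of 25 among the brighter genes (1.51% of those genes). With the methods' t-test it was 17 (2.39% of all genes). It was 18 to 25 without single lungs (18 without WT replicate 2), against 1.6% to 5.91% of all genes. The highest share was that without null replicate 3. Genes passing over all genes, 1 at first, numbered 56 with WT replicate 1 and null replicate 3 as a block (11 of the 45 RNAs), 23 without both (5 of the 45), 2 with array weights (*Mir127* besides *Tnrc6a*), 0 with the methods' t-test, and 0 to 1 without single lungs, 0 without WT replicate 3. Since both lungs were singled out by their values, those counts are optimistic.

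With the replicate number as a block 23 of the 45 RNAs were higher at an unadjusted p under 0.05, against 1.98% of all genes. In that fit 1 gene passed over all genes. The deviations of same-numbered lungs from their genotype means had correlations of -0.295, 0.361 and -0.163. The deviations of the lungs within a genotype depend on each other, so these correlations cannot decide whether the numbers pair the lungs. The main fit used no pairing.

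Medians that moved by more than the spread were as follows. Among brighter genes the lists lost their dim members. The *Rtl1* antisense group, then *Mir431* and *Mir127*, stood at 0.493, and the thyroid hormone list, then *Thra* and *Klf9*, at -0.365. Of the small nucleolar RNA genes near *Rian* only *DQ267102* was left, at 0.363. Airway markers stood at -0.172. Without both lungs, the small nucleolar RNA genes stood at 0.355, microRNA genes elsewhere at 0.050, the thyroid hormone list at -0.110 and cartilage markers at -0.090. With centring, imprint maintenance stood at -0.027, microRNA biogenesis at -0.090 and mesenchyme at -0.157. With quantile normalization over all probe sets and over those with 1 symbol, microRNA genes elsewhere stood at 0.034 and 0.024, and microRNA biogenesis at 0.0019 and 0.0089. Without single lungs, the *Rtl1* antisense group ranged over 0.245 to 0.360, the small nucleolar RNA genes over 0.037 to 0.377, imprint maintenance over -0.050 to 0.042, airway markers over -0.195 to -0.037, mesenchyme over -0.152 to -0.107 and smooth muscle over -0.140 to 0.018. For the settings that kept all genes, the cause was not tested.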
